A study of Mus musculus with 18 samples.

Results

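The miRNAs described here are the mature arms of miR-219 and miR-338 that mark oligodendrocytes, the myelin-forming glia of the brain. They were chosen by name, as the features mmu-miR-219a-5p, mmu-miR-219a-2-3p, mmu-miR-338-3p and mmu-miR-338-5p, which are 4 of the 1978 mature miRNAs and 4 of the 203513 features in the count table. Small RNA sequencing had been performed on 3 cell fractions of the brain from mice aged 10 months, with 3 libraries per fraction from wild type (WT) and 3 from Atxn2-CAG100-KIN mice (KIN), 18 libraries in 6 groups. KIN mice carry an expanded CAG repeat in both copies of the ataxin-2 gene and model spinocerebellar ataxia, and per the study's methods all mice shared a C57BL/6 background and KIN and WT mice were littermates. Each brain was dissociated and yielded its fractions in sequence, first microglia on CD11b beads, then astrocytes on ACSA-2 beads, and last neurons as the cells that a cocktail against other cell types and CD31 beads did not retain. No fraction was enriched for oligodendrocytes.

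miR-219 and miR-338 rise when oligodendrocyte precursors leave the cell cycle and begin to make myelin. They bind messenger RNAs through the seed near their first base and lower regulators that hold precursors in their immature state, among them Pdgfra, Sox6 and Hes5. A miRNA gene makes a hairpin transcript, from which the 5p arm and the 3p arm are cut, and usually one of the arms is kept in larger amounts.

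The sequences of the 4 arms are shown because their seeds set which messages they can bind, and the bases 2 to 8, the seed, are in capitals. They were read from the descriptions in the count table, and the 3 of them that the RefSeq table (GRCm39) holds had the same letters there.
mmu-miR-219a-5p: tGATTGTCcaaacgcaattct
mmu-miR-219a-2-3p: aGAATTGTggctggacatctgt
mmu-miR-338-3p: tCCAGCATcagtgattttgttg
mmu-miR-338-5p: aACAATATcctggtgctgagtg
The 4 seeds differed from each other, and none of the other mature miRNAs in the table shared any of them.

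The arms come from 3 hairpin genes, all on the minus strand of GRCm39, and the hairpins are shown because 2 of them hold the same 5p arm. Capitals mark the mature arms, the 5p arm first.
Mir219a-1: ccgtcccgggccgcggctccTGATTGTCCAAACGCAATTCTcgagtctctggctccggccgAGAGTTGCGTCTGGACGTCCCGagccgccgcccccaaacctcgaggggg
Mir219a-2: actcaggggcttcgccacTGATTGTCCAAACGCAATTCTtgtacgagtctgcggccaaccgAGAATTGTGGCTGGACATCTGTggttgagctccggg
Mir338: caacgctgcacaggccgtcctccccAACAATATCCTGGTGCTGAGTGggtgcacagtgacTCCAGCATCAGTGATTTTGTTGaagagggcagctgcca
Mir219a-1 lies at chr17:34243957-34244066, over an exon of the long noncoding RNA Gm26940 and 303 bases from the protein-coding gene Ring1. Mir219a-2 lies at chr2:29735643-29735739, inside the long noncoding RNA Gm54109, with an exon over it in 3 of 7 transcripts, and 626 bases from Urm1. Mir338 lies at chr11:119905591-119905688, in an intron of all 28 transcripts of Aatk, a kinase gene, that span it. mmu-miR-219a-5p can come from either miR-219a gene, whereas mmu-miR-219a-2-3p comes from Mir219a-2, and the 3p arm of Mir219a-1 shares 15 of 22 positions with it.

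Each hairpin also has an annotated miRNA gene on its opposite strand, Mir219c, Mir219b and Mir3065 in the order above. The arm mmu-miR-219b-3p covers all 21 bases of mmu-miR-219a-5p, and mmu-miR-3065-5p covers 21 bases of mmu-miR-338-3p. Because the authors counted without use of the strand, the counts of an arm and of its opposite-strand partner may hold reads of each other.

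The libraries held between 1211118 and 4316748 counts, and mature miRNAs took 5.05% to 10.3% of them in astrocytes, 5.09% to 8.45% in microglia and 0.964% to 2.13% in neurons. Levels are given in CPM, counts scaled to the same total of all small RNA counts in each library. The marker genes of the fractions, read from short fragments of their transcripts, followed the labels: 9 astrocyte genes summed to between 101 and 410 CPM in astrocyte libraries and at most 13.0 elsewhere, and 9 microglia genes to between 70.2 and 154 CPM in microglia and at most 3.93 elsewhere. The 9 neuron genes summed to between 17.3 and 59.4 CPM in neurons, but also to as much as 57.2 in WT astrocytes. In astrocytes the astrocyte genes themselves were lower in KIN (101 to 134 CPM) than in WT (342 to 410 CPM). One library stood apart, WT neurons replicate 2, which held 240 of the 247 counts of the 4 miRNAs in WT neurons and 112 of the 119 counts of Mbp, a major myelin protein. The 3 fractions of KIN replicate 1 held 4 to 5 counts of the female-specific transcript Xist, against 12 to 102 in the other 15 libraries. Per the study's methods each KIN mouse was paired with a WT mouse of its sex, with 2 male pairs and 1 female pair. The Xist counts did not mirror this split, since no WT library was as low as those of KIN replicate 1. The labels do not give the sex of a library, and the part of sex in the differences between KIN and WT was not tested.

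The fraction labelled astrocytes carried nearly all of the signal of the 4 miRNAs. In WT astrocytes mmu-miR-219a-5p reached 939, 1539 and 1104 CPM in replicates 1 to 3, a mean of 1194 ± 310 (SD, n = 3), and ranked 14 among mature miRNAs. mmu-miR-338-3p, the more abundant arm of its hairpin, was at 447, 890 and 571 CPM. mmu-miR-219a-2-3p followed at 383, 605 and 490 CPM. mmu-miR-338-5p was the lowest of the 4, at 90.6, 139 and 109 CPM. In every WT astrocyte library the lowest member was thus separated from the other 3, and replicate 2 was the highest for each miRNA.

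In WT microglia the same miRNAs were low. mmu-miR-338-3p was the highest there, with 58, 59 and 66 counts or 16.7, 17.0 and 18.0 CPM. mmu-miR-219a-5p had 43, 41 and 44 counts or 12.4, 11.8 and 12.0 CPM. The order of the first pair was therefore turned with respect to astrocytes, while mmu-miR-219a-2-3p had only 8 to 13 counts and mmu-miR-338-5p 5 to 14.

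In neurons the values depended on the library. mmu-miR-219a-5p had 1, 73 and 1 counts in WT and 13, 4 and 2 in KIN. mmu-miR-219a-2-3p had 3, 111 and 0 counts in WT and 11, 9 and 11 in KIN, which made it the most abundant member in KIN neurons. mmu-miR-338-5p had 0, 22 and 0 counts in WT, and a count of 0 allowed levels of up to 2.48 and 1.96 CPM in these libraries. All counts of the pair from Mir338 in KIN neurons were between 1 and 3 per library.

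**Figure D1:**
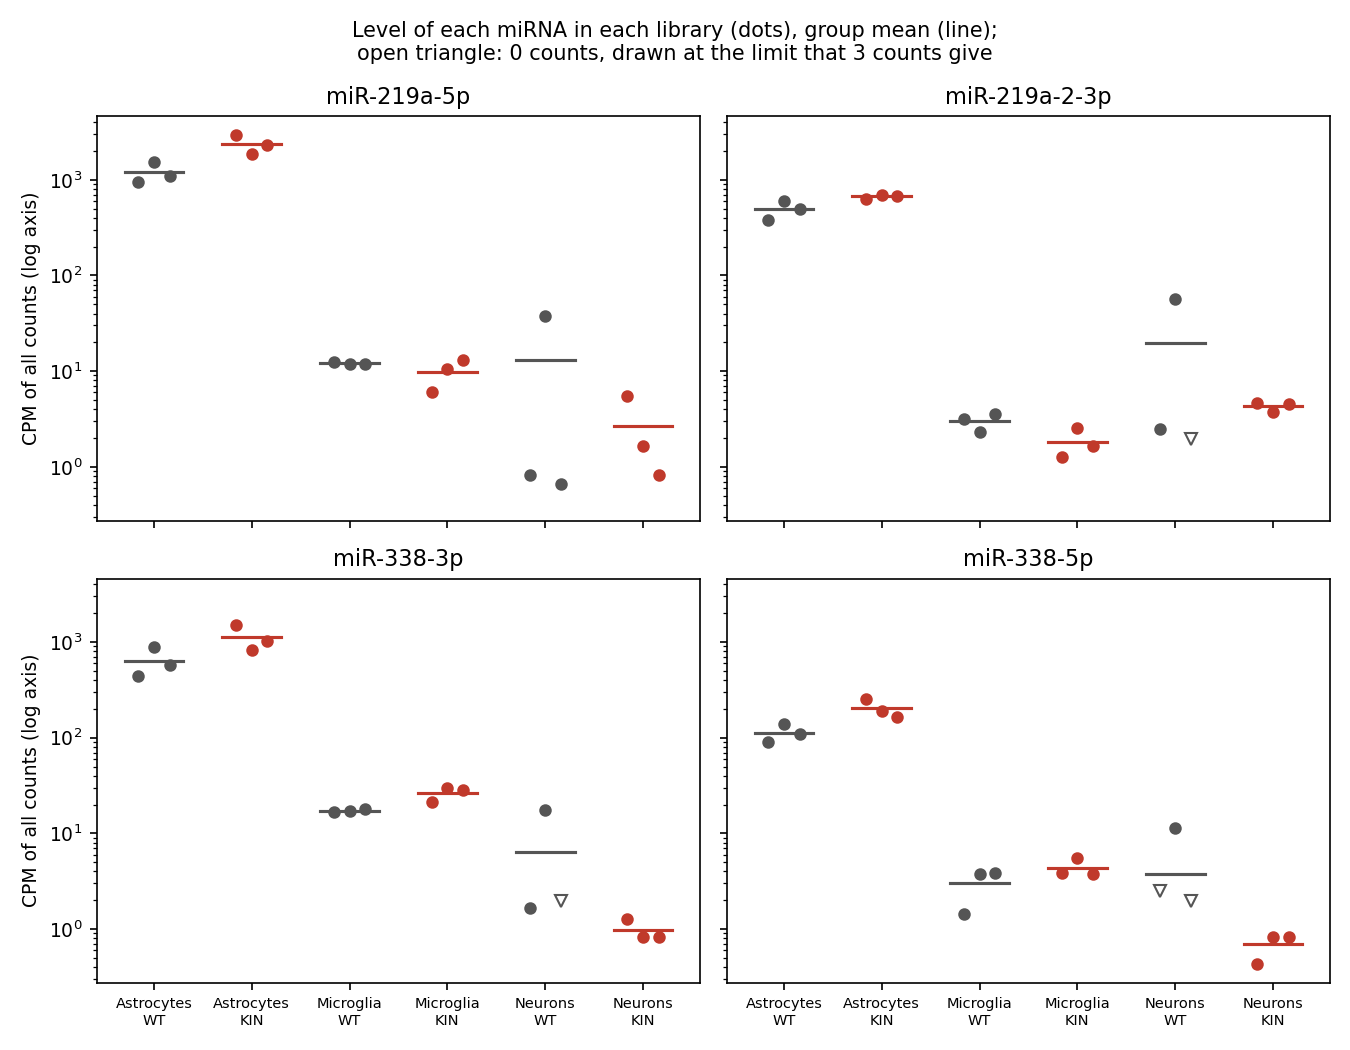
Level of each miRNA in each library, in CPM of all counts on a log axis, by fraction and genotype; dots are libraries, lines are means of 3, and open triangles are libraries with 0 counts drawn at the level of 3 counts. Every astrocyte library lies above every microglia and neuron library, and the WT neuron value of replicate 2 lies far above the other WT neuron libraries.

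All 4 miRNAs were lower in microglia than in astrocytes, in WT and in KIN, with no overlap between libraries, a pattern that 29.2% and 31.6% of all features tested showed. The test was edgeR's quasi-likelihood test over all features. To be called, a feature needed a Benjamini-Hochberg adjusted p no larger than 0.05 together with a log2 fold change of 1 or more in either direction. In WT, where 19.3% of all tested features were called lower in microglia, the log2 fold change was −6.53 ± 0.31 (SE) for mmu-miR-219a-5p (adjusted p = 1.52e-07) and −7.26 ± 0.34 for mmu-miR-219a-2-3p (1.25e-07). For the arms of miR-338 it was −5.11 ± 0.35 for mmu-miR-338-3p (2.54e-06) and −5.10 ± 0.44 for mmu-miR-338-5p (1.37e-05). In KIN, with 21.2% of features called lower, the differences were −7.76 ± 0.29 for mmu-miR-219a-5p, −8.35 ± 0.28 for mmu-miR-219a-2-3p, −5.24 ± 0.25 for mmu-miR-338-3p and −5.38 ± 0.27 for mmu-miR-338-5p, and each was called. The median of all mature miRNAs tested in the same comparisons was −0.28 in WT and −0.32 in KIN.

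All 4 were also lower in neurons than in astrocytes, again without overlap, which held for 28.5% of features in WT and 27% in KIN. In WT neurons, with 18.5% of features called lower, the log2 fold change was −6.64 ± 1.27 for mmu-miR-219a-5p, −6.74 ± 1.12 for mmu-miR-338-3p, −4.94 ± 1.08 for mmu-miR-338-5p and −4.77 ± 1.31 for mmu-miR-219a-2-3p, against a median of −2.66 for all mature miRNAs tested. Without WT neurons replicate 2 the estimates were between −11.3 and −8.93, and the 4 calls held. That of mmu-miR-219a-2-3p was lost without WT neurons replicate 1 or any 1 of the WT astrocyte libraries (adjusted p between 0.0538 and 0.0690). In KIN neurons, with 24.1% of features called lower, mmu-miR-338-3p had 7 counts in all against 11935 in astrocytes, a ratio of CPM of 1142 with a 95% counting interval of 554 to 2840. The ratio for mmu-miR-338-5p was 291 (124 to 897, 5 counts in neurons), and for mmu-miR-219a-5p it was 896 (574 to 1489, 19 counts). The ratio for mmu-miR-219a-2-3p was smaller, 156 (110 to 229), and its interval did not meet those of mmu-miR-219a-5p and mmu-miR-338-3p. Intervals cover counting error only. In KIN the 4 calls in each of microglia and neurons against astrocytes held without replicate 1 of either fraction compared.

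Neurons were called lower than microglia for most of the miRNAs in KIN and for none in WT. In KIN, where 26.2% of features were called lower in neurons, 3 of the 4 miRNAs were called lower, by 5.18 ± 0.46 for mmu-miR-338-3p (adjusted p = 1.72e-09 in edgeR), by 3.04 ± 0.58 for mmu-miR-338-5p (0.000103) and by 2.35 ± 0.49 for mmu-miR-219a-5p (0.000300). mmu-miR-219a-2-3p was at 4.69, 3.71 and 4.54 CPM in KIN neurons and 1.27, 2.55 and 1.63 CPM in KIN microglia. Its libraries did not overlap and lay higher in neurons, as 39.9% of features did, yet the difference of 0.74 ± 0.47 did not pass (adjusted p = 0.182). It passed with scaling by library totals (1.20, adjusted p = 0.0393) and by mature miRNAs alone (3.22). In WT, with 14.5% of features called lower and 13.5% called higher, none of the 4 was called by edgeR or by DESeq2, which called 26.6% of features, none had an unadjusted p under 0.05, and the libraries overlapped for each. Without WT neurons replicate 2, 3 of the 4 were called lower in WT neurons than in WT microglia, all but mmu-miR-219a-2-3p. With scaling by mature miRNAs alone, mmu-miR-219a-2-3p was called higher in WT neurons (4.13). With libraries scaled by mature miRNAs alone, which are a small part of the neuron libraries, mmu-miR-219a-5p turned to 0.11 in KIN and mmu-miR-338-5p lost its call. The KIN effect in neurons minus that in microglia was called for none of the 4 in edgeR, where 0.639% of features were called. DESeq2 called 1, where 2.17% of features were called. In edgeR 2 of the 4 had an unadjusted p under 0.05, as did 717 of 6414 features. Against astrocytes none of the 4 was called by either tool, where 0% of 7084 features were. All 4 had an unadjusted p under 0.05 in edgeR there, as did 598 features, and the median of all mature miRNAs tested was −0.82. These interactions share the WT neuron library that stood apart, and without it none of the 4 was called in either of them.

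Fragments of myelin genes were present in every fraction, but the amount of the miRNAs relative to them differed between fractions. The 18 genes of the myelinating oligodendrocyte list, among them Mbp and Mog of the myelin sheath and the transcription factors Olig1, Olig2 and Sox10, summed to 35.8 to 39.1 CPM in WT astrocytes and 8.64 to 10.9 CPM in WT microglia. All 18 were detected in astrocytes of both genotypes. In WT microglia 3 of the 18 were at 0, among them Aspa and Nkx6-2, and in KIN microglia 10 of the 18 were. In WT neurons the sum was 88.9 CPM in replicate 2 and 13.2 CPM in the lower of the other 2 libraries. The 4 miRNAs were also highest in replicate 2 among the WT neuron libraries. Set against this sum, the 4 miRNAs together amounted to 47.6 to 87.1 per unit of myelin CPM in WT astrocytes and 3.08 to 4.03 in WT microglia. The ratio was 0.0476 to 1.38 in WT neurons. WT neurons replicate 2 thus had the highest myelin sum of all 18 libraries, with far less of the 4 miRNAs than any astrocyte library. Most of its 174 counts of these genes were of Mbp, and 7 of the 18 genes were at 0 in WT neurons. That sum therefore rested largely on 1 gene. In these bulk fractions, fewer cells of a type and less RNA per cell cannot be told apart, and the part of myelin-forming cells in the astrocyte signal was not tested.

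**Figure D2:**
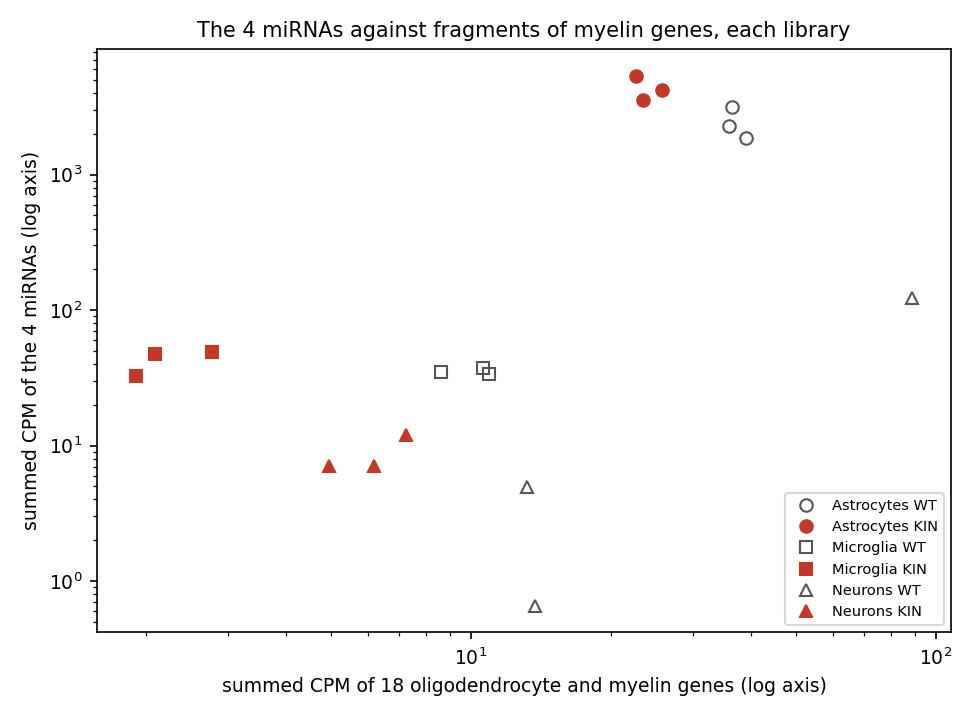
Summed CPM of the 4 miRNAs (y, log axis) against summed CPM of 18 oligodendrocyte and myelin genes (x, log axis) in each of the 18 libraries; open symbols are WT and filled symbols KIN. KIN astrocytes lie left of and above WT astrocytes, with 22.7 to 25.8 against 35.8 to 39.1 CPM of myelin genes, and WT neurons replicate 2 lies at the right edge.

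Of the 33 oligodendrocyte-lineage genes (18 myelinating, 9 precursor and 9 genes described as targets, 3 of which are also precursor genes), 15 passed the filter on low counts in WT microglia against WT astrocytes. Of these, 6 were called lower in microglia and none higher, where 16% of all genes tested were called lower. Among them were the transcription factors Olig1, Olig2 and Sox6, the receptor Fgfr2 and Ptprz1 (−6.03 ± 0.53), a receptor phosphatase of precursors that astrocytes also make. Mbp, at −0.67 ± 0.51, was not called, although the 4 miRNAs were all lower by more than 5 on the same scale. In KIN, 7 of the 8 genes that passed the filter were called lower in microglia, among them Cnp, Fgfr2, Mag, Mbp, Olig1 and Ptprz1, where 22.6% of all genes were. The median of the tested genes was −1.09 in WT and −3.21 in KIN, against −0.12 and −0.09 over all genes tested. These medians cover only the genes that passed the filter. Without WT astrocytes replicate 2 there were 3 calls in WT in place of 6.

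In neurons the direction of the lineage genes depended on what they were set against. Against astrocytes, 3 of 14 tested genes were called lower in WT neurons, among them Olig2 and Ptprz1, and Vcan, a proteoglycan of the extracellular matrix, was called higher, where 15.7% of all genes were called lower and 8.2% higher. In KIN 6 of 9 were called lower, among them Cnp, Mag, Mbp (−2.09 ± 0.49), Olig1 and Ptprz1, and Vcan again higher, against 22.5% and 19.2% of all genes. Against microglia none was called lower, and Fgfr2, Ptprz1 and Vcan were called higher in WT (3 of 6, 11% of all genes) and 2 of 4 in KIN, among them Vcan (28.9% of all genes). In KIN there was 1 call with DESeq2 and without KIN microglia replicates 1 or 3 or KIN neurons replicate 1. With scaling by mature miRNAs alone Mbp turned to 1.20 in KIN neurons against astrocytes. In WT neurons against astrocytes there was 1 call without any 1 of the WT astrocyte libraries or WT neurons replicates 1 or 3. In WT neurons against microglia there was none without WT microglia replicate 1 or WT neurons replicate 3, and 1 without WT microglia replicates 2 or 3 or WT neurons replicate 2. Between KIN and WT none of the 3 lineage genes tested in microglia and none of the 8 tested in neurons was called by edgeR, which called 4.69% and 0% of all genes, or by DESeq2, with 6.23% and 0%. In microglia 2 of the 3 had an unadjusted p under 0.05 and in neurons 1 of the 8, Mbp being among them in both fractions, all with lower estimates in KIN. Of all genes tested in edgeR, 1378 of 5603 in microglia and 230 of 5575 in neurons had such a p.

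In astrocytes mmu-miR-219a-5p was higher in KIN than in WT. It was at 2964, 1841 and 2322 CPM in KIN replicates 1 to 3, a mean of 2376 ± 564 (SD, n = 3), against 1194 ± 310 in WT. The lowest KIN library lay above the highest WT library. The log2 fold change was 1.11 ± 0.21 (edgeR, adjusted p = 0.0151), so that 1 of the 4 miRNAs was called, where 1.79% of all features tested were called higher. Its rank among mature miRNAs was 8 in KIN and 14 in WT.

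The other 3 rose less or did not pass. mmu-miR-338-5p was at 255, 189 and 166 CPM in KIN astrocytes and did not overlap with WT. Its log2 fold change of 0.96 ± 0.21 had an adjusted p of 0.0241 in edgeR but was below the fold required for a call. mmu-miR-338-3p was at 1512, 817 and 1023 CPM in KIN, and its second replicate lay within the WT range (0.92 ± 0.27, adjusted p = 0.0537). mmu-miR-219a-2-3p was at 636, 693 and 683 CPM in KIN, just above the highest WT library at 605, and its difference of 0.57 ± 0.17 did not pass (adjusted p = 0.0577). Libraries of KIN and WT did not overlap for 3 of the 4 miRNAs, all higher in KIN, where 10.8% of the features tested did so in that direction.

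The size of these differences moved with the scale. The median log2 fold change of the 418 mature miRNAs tested was 0.58, and 47 of them were called higher and 9 lower. mmu-miR-219a-2-3p lay at that median, and the other 3 lay above it. As a share of mature miRNA counts, mmu-miR-219a-5p was 1.86%, 1.85% and 1.81% in WT and 2.86%, 2.02% and 2.75% in KIN, still without overlap. How many features lay apart on this scale was not counted. The share of mmu-miR-219a-2-3p was 0.759%, 0.729% and 0.805% in WT and 0.614%, 0.759% and 0.810% in KIN, and its libraries overlapped. With the libraries scaled by mature miRNAs alone, mmu-miR-219a-5p was at 0.43 (adjusted p = 0.143), mmu-miR-219a-2-3p turned to −0.11 and none of the 4 was called. The call of mmu-miR-219a-5p was also lost without KIN astrocytes replicate 1 (0.94, adjusted p = 0.0767), without KIN replicate 3 and without WT replicates 1 or 3, while without WT replicate 2 there were 3 calls.

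**Figure D3:**
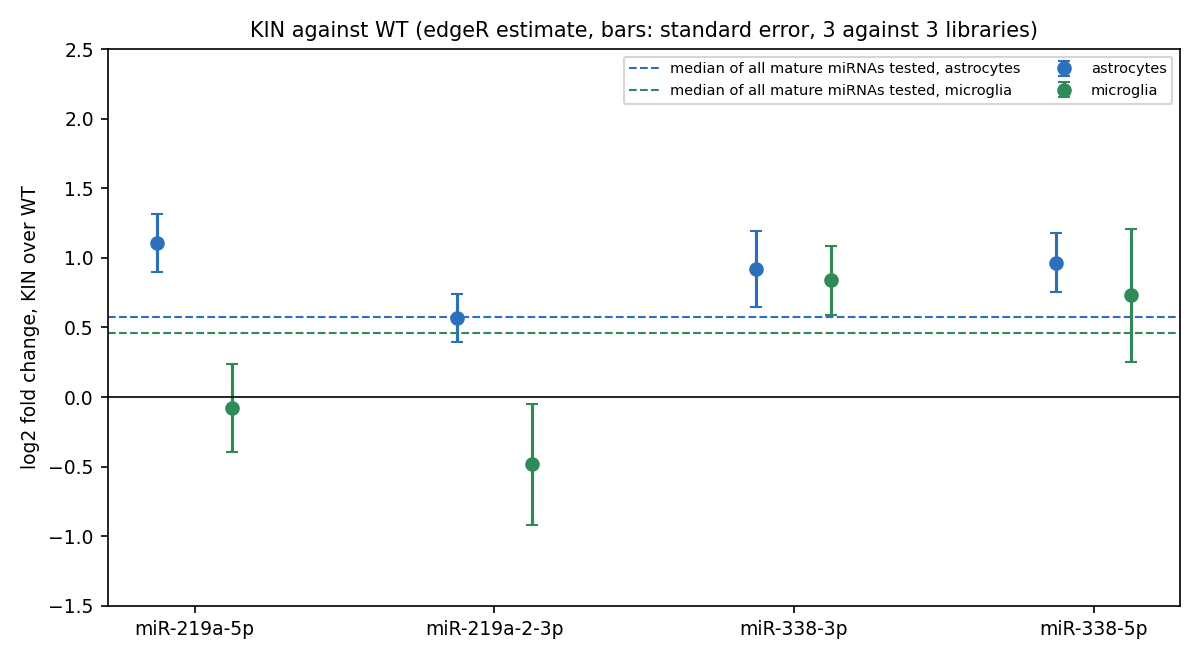
Log2 fold change of KIN over WT for each miRNA in astrocytes and microglia (edgeR estimates, bars are standard errors, 3 against 3 libraries); dashed lines are the medians of all mature miRNAs tested, 0.58 in astrocytes and 0.46 in microglia. All 4 estimates are above 0 in astrocytes, while in microglia both arms of miR-338 are above 0 and both arms of miR-219a are at or below it.

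The summed level of the myelin genes was lower in KIN in the same astrocyte libraries, although none of these genes was called. It was 22.7 to 25.8 CPM in KIN against 35.8 to 39.1 CPM in WT, without overlap, and the 9 precursor genes summed to 10.2 to 20.6 CPM against 39.4 to 47.7 CPM. Of the 18 myelin genes 9 were tested, with 3 estimates above 0 and 6 below and a median of −0.20. Of the 33 lineage genes, 14 were tested and 1 was called, Ptprz1, which was lower (−1.25 ± 0.28, edgeR adjusted p = 0.0199), where 6.33% of all genes tested were called lower. That call was lost without WT replicates 1 or 3 or KIN replicates 2 or 3. The median of the 14 was −0.47, against −0.27 for all genes tested. Mbp was at 5.41, 7.29 and 3.04 CPM in WT and 4.65, 3.34 and 4.03 CPM in KIN, and overlapped. Per unit of myelin CPM the 4 miRNAs amounted to 151 to 237 in KIN astrocytes, above the 47.6 to 87.1 of WT, and in microglia, where none of the 4 was called, to 17.0 to 22.4 in KIN and 3.08 to 4.03 in WT. The astrocyte genes were lower in KIN as well, as given above. The 9 neuron genes summed to 13.3 to 57.2 CPM in WT astrocytes and 10.0 to 11.8 CPM in KIN astrocytes, and 27657 to 32839 features were detected in WT against 21874 to 23544 in KIN. The part of the makeup of the fraction and of these library differences in the miRNA differences was not tested.

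Of the 9 genes described as targets of miR-219 or miR-338, 4 were tested in KIN against WT astrocytes and none was called, where 8.57% of all genes tested were called in either direction. Zbtb18 alone had an unadjusted p under 0.05, and DESeq2 called none, giving an adjusted p only for Fgfr2. Sox6 was at −0.49 ± 0.62, Zbtb18 at −1.72 ± 0.73, Etv5 at −1.03 ± 0.72 and Fgfr2 at 0.23 ± 0.51, with adjusted p-values of 0.621, 0.133, 0.336 and 0.785. Pdgfra and Hes5 did not pass the filter on low counts. At this depth of fragments, estimates larger than their standard errors, as for Zbtb18 and Etv5, still did not pass. Smaller changes in these genes were not detectable.

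In microglia none of the 4 miRNAs was called between KIN and WT by edgeR or DESeq2, which called 4.35% and 7.65% of features in either direction. Of the 4940 features tested 1250 had an unadjusted p under 0.05 in edgeR, and 1 of the 4 miRNAs did. That was mmu-miR-338-3p, with 67, 130 and 123 counts in KIN or 21.3, 30.1 and 28.6 CPM. Its lowest KIN library lay above the highest WT library at 18.0 CPM, in a comparison in which 8.12% of features did so, and the difference was 0.84 ± 0.25 (adjusted p = 0.0812). mmu-miR-338-5p was at 0.73 ± 0.48 with overlap. The miR-219a arms were at −0.08 ± 0.32 for mmu-miR-219a-5p, with 19, 45 and 56 counts in KIN, and −0.48 ± 0.44 for mmu-miR-219a-2-3p. Without KIN microglia replicate 1, mmu-miR-219a-5p turned to 0.09 and mmu-miR-338-3p was at 0.90 (edgeR, adjusted p = 0.0667). As a share of mature miRNA counts, mmu-miR-219a-5p and mmu-miR-219a-2-3p were lower in KIN microglia without overlap (log2 ratios of means −0.81 and −1.22). The share of mmu-miR-338-3p was higher without overlap (0.15), and that of mmu-miR-338-5p overlapped. How many features lay apart on this scale was not counted. By CPM, 18.5% of features lay lower in KIN microglia without overlap. The value of mmu-miR-219a-2-3p rested on 32 counts in WT and 22 in KIN. With scaling by mature miRNAs alone the miR-219a arms were at −0.53 and −0.92 and were not called (edgeR, adjusted p = 0.298 and 0.249).

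The difference between the KIN effects in microglia and in astrocytes was −1.16 ± 0.38 for mmu-miR-219a-5p and −1.02 ± 0.41 for mmu-miR-219a-2-3p, with unadjusted p-values of 0.00649 and 0.0237 in edgeR. Neither passed the adjustment over all features (0.203 and 0.367), and 0.312% of all features were called in this interaction. Without WT astrocytes replicate 2 the difference for mmu-miR-219a-5p was −1.64 and passed (adjusted p = 0.0232). For miR-338 the difference was −0.07 ± 0.40 for the 3p arm, which turned to 0.04 with the size factors of DESeq2, and −0.21 ± 0.51 for the 5p arm. An effect on the miR-219a arms that differs between the fractions was thus not shown, and neither was an equal one.

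In neurons only the miR-219a arms passed the filter on low counts, and neither was called. No feature was called by edgeR or DESeq2 in this comparison (0% of 4535 tested, 197 of them with an unadjusted p under 0.05 in edgeR). The estimates of −2.32 ± 1.18 for mmu-miR-219a-5p and −2.22 ± 1.16 for mmu-miR-219a-2-3p rested on WT replicate 2. Without it the second turned to 1.85 (adjusted p = 0.491) and the first no longer passed the filter.

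The ratios of the 3p arm to the 5p arm were compared between fractions and between genotypes. mmu-miR-338-3p exceeded mmu-miR-338-5p by 4.33 to 6.42 times in the 6 astrocyte libraries and by 4.54 to 11.6 times in microglia. On the log2 scale, with 0.5 added to each count, the ratio was 2.46 ± 0.20 in WT astrocytes, 2.43 ± 0.28 in KIN astrocytes, 2.58 ± 0.72 in WT microglia and 2.58 ± 0.28 in KIN microglia (SD, n = 3). KIN and WT astrocytes differed by −0.02 in an exact two-sided permutation test (p = 0.9), and microglia and astrocytes by 0.14 with libraries exchanged within genotype (exact p = 0.61). For miR-338 a difference in arm use between the glial fractions was not detectable with these libraries.

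For miR-219a the 5p arm was the larger one in both glial fractions. Because mmu-miR-219a-5p can come from either miR-219a gene and mmu-miR-219a-2-3p only from Mir219a-2, this ratio is not that of a single hairpin. The part of each gene in it was not tested. The log2 ratio of mmu-miR-219a-2-3p to mmu-miR-219a-5p was −1.29, −1.35 and −1.17 in WT astrocytes and −2.22, −1.41 and −1.77 in KIN astrocytes. The groups did not overlap, and the difference of −0.53 had an exact permutation p of 0.1, the smallest that 3 against 3 libraries allow (0.2 after adjustment over 12 tests). In microglia the ratio was lower than in astrocytes by 0.62 (exact permutation p = 0.015, adjusted 0.045), with −1.98 ± 0.29 in WT and −2.34 ± 0.50 in KIN, a call that was lost without any 1 of WT astrocytes replicates 1 to 3, KIN astrocytes replicate 2 or KIN microglia replicates 1 to 3 (adjusted p up to 0.108). In neurons it was higher than in astrocytes by 2.08 (exact permutation p = 0.02, adjusted 0.048), and in 4 of the 6 neuron libraries the 3p arm was the larger one. An arm had 3 counts or fewer in 3 of the 6 neuron libraries for miR-219a and in 5 of 6 for miR-338. The miR-338 ratio was lower in neurons than in astrocytes by 1.75 (exact permutation p = 0.01, adjusted 0.045), a value that rests on those counts. Both neuron calls were lost without any 1 of WT astrocytes replicates 1 to 3 or KIN astrocytes replicate 2, and that of miR-219a also without KIN astrocytes replicates 1 or 3 (adjusted p between 0.06 and 0.084).

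**Figure D4:**
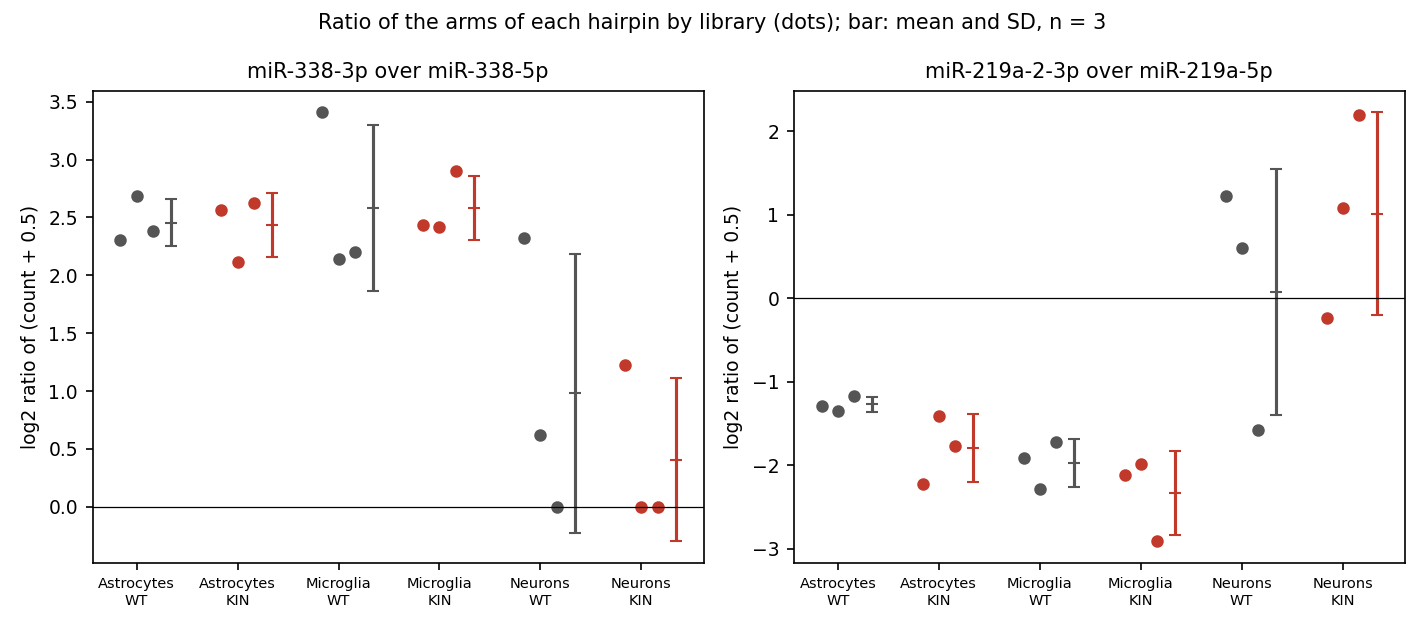
Log2 ratio of the arms of each hairpin, with 0.5 added to each count, in every library (dots) with mean and SD of 3 libraries (bars). The miR-338 ratio lies between 2.11 and 3.41 in all glial libraries, and the miR-219a ratio lies below 0 in all glial libraries and above 0 in 4 of 6 neuron libraries.

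The counts on the hairpins differed between the fractions in which miR-219a gene they fell on. In astrocytes almost all fell on Mir219a-2 of chromosome 2, with 2566, 5220 and 3307 counts in WT, and few on Mir219a-1 of chromosome 17, with 17, 34 and 17. In WT microglia Mir219a-2 had 23, 24 and 33 counts and Mir219a-1 had 17, 24 and 21. In KIN microglia Mir219a-1 was the larger, with 17, 45 and 54 counts against 12, 23 and 26. The ratio of Mir219a-1 to Mir219a-2 was 0.00514 to 0.00870 in the 6 astrocyte libraries, 0.636 to 1.00 in WT microglia and 1.42 to 2.08 in KIN microglia, and no libraries of these 3 sets overlapped. The ratio was not tested between KIN and WT microglia. By CPM, 6.96% of genes lay higher and 19.8% lower in KIN microglia without overlap.

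Mir219a-2 was called between the fractions and Mir219a-1 was not. In WT microglia against WT astrocytes the log2 fold change of Mir219a-2 was −6.91 ± 0.42 (adjusted p = 1.66e-09 in edgeR), whereas Mir219a-1 was at 0.10 ± 0.46 (adjusted p = 0.891), and at −0.13 when library totals were used for scaling. Without WT astrocytes replicate 1 or 3 or WT microglia replicate 2, Mir219a-1 was also slightly below 0, at −0.10, −0.11 and −0.29. In KIN the values of Mir219a-2 and Mir219a-1 were −8.37 ± 0.23 and −0.31 ± 0.37. The arms of the opposite strand, counted in an earlier round of read placement, also differed in proportion between the fractions. mmu-miR-219c-3p of chromosome 17 amounted to 0.0142 to 0.0191 of mmu-miR-219b-3p of chromosome 2 in astrocytes and to 0.195 to 1.56 of it in microglia. The 3p arm of Mir219a-1, which the arm on chromosome 2 does not share, had 0 counts in WT astrocytes, 9 in KIN astrocytes and at most 2 in either microglia group, too few to compare. The 5p arm has the same letters in both hairpins, so its reads cannot be assigned to a gene. Of its bases mmu-miR-219b-3p covers 21 and mmu-miR-219c-3p covers 20, and counting ignored the strand. The ratio of these 2 arms therefore cannot show which gene the reads came from.

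**Figure D5:**
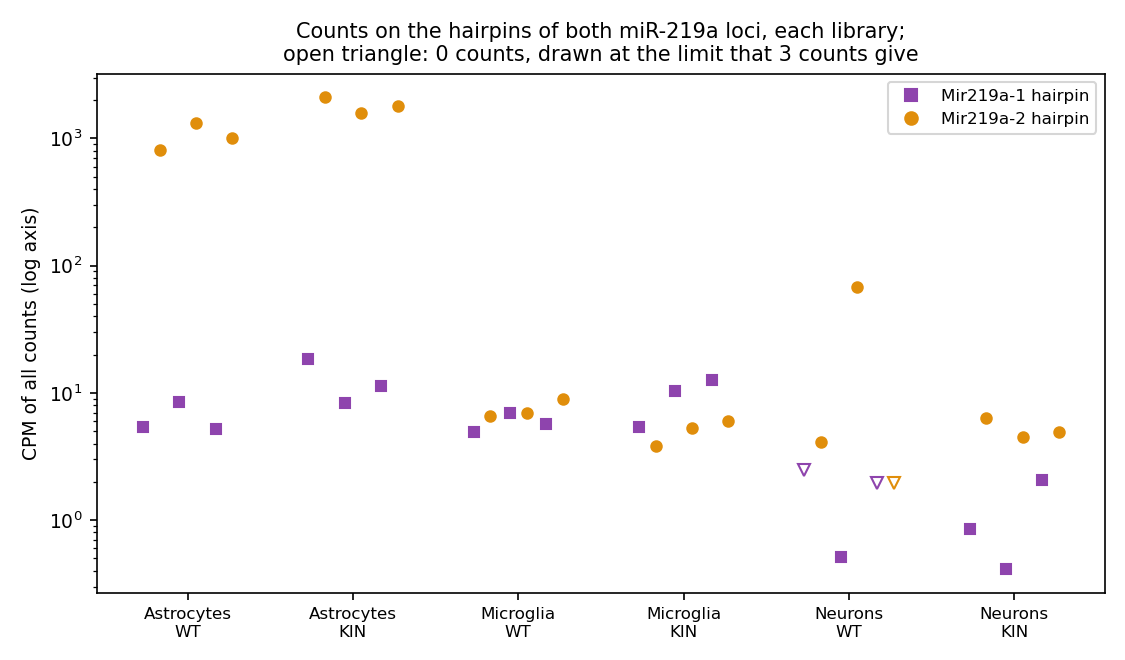
CPM of the Mir219a-1 and Mir219a-2 hairpins in each library (log axis), with open triangles for 0 counts drawn at the level of 3 counts. In the 6 astrocyte libraries Mir219a-2 lies far above Mir219a-1, with a ratio of Mir219a-1 to Mir219a-2 of at most 0.00870, and in microglia both lie at a similar low level.

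On the hairpins the KIN effect in astrocytes was close to that on the arms. Mir219a-2 rose by 1.00 ± 0.19 (adjusted p = 0.0103), Mir338 by 1.03 ± 0.26 (0.0282), and the opposite-strand hairpins Mir219b by 1.20 ± 0.22 and Mir3065 by 1.04 ± 0.25, so that 4 of the 5 hairpins with enough counts were called by edgeR, where 2.24% of genes tested were called higher. Mir219b and Mir3065 overlap Mir219a-2 and Mir338 on the opposite strand, and counting ignored the strand. These 4 calls are therefore not independent and cover only the loci of Mir219a-2 and Mir338. Mir219a-1, with 63, 30 and 42 counts in KIN, was at 1.17 ± 0.38 (0.0652). The 4 calls were lost without WT replicates 1 or 3 or KIN replicates 1 or 3, and with scaling by mature miRNAs alone, where the estimates were 0.24 to 0.44. With all arms and hairpins of a locus added, a total chosen after the counts were seen, the miR-219 loci rose by 1.08 ± 0.20 (0.00759) and the miR-338 locus by 1.01 ± 0.25 (0.0269), in a fit that called 8.51% of features. In microglia the same totals were at −0.03 ± 0.27 and 0.89 ± 0.26 (0.0687) and were not called, where 4.7% of features were. As an interaction between microglia and astrocytes, the KIN effect was called for 1 of these hairpins, Mir219b (−2.20 ± 0.42, edgeR adjusted p = 0.0260), where 0.425% of genes were called. That call was lost without any 1 of 7 libraries, WT astrocytes replicates 1 and 3, KIN astrocytes replicates 1 and 3, WT microglia replicate 1 and KIN microglia replicates 2 and 3. Adding the opposite-strand arm to each of the 4 miRNAs changed no call in any comparison.

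The proportion of opposite-strand arms to the members in astrocytes differed from pair to pair. mmu-miR-219b-3p amounted to 0.487 to 0.517 of mmu-miR-219a-5p in the 6 astrocyte libraries, and Mir3065 to 0.995 to 1.06 of Mir338. mmu-miR-3065-5p was only 0.0570 to 0.0788 of mmu-miR-338-3p, and mmu-miR-3065-3p was 0.0593 to 0.103 of mmu-miR-338-5p. mmu-miR-219b-5p was 0.0349 to 0.0473 of mmu-miR-219a-2-3p in WT and 0.0307 to 0.0330 in KIN, a difference that was not tested. Aatk, the host gene of Mir338, had too few fragments in astrocytes to show whether it moved with Mir338. Its fragments numbered 15, 8 and 20 counts in WT and 7, 3 and 2 in KIN, a difference of −1.65 ± 0.55 that did not pass (adjusted p = 0.0700).

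Over the 18 libraries the 4 miRNAs resembled each other and a small set of other miRNAs. Among 176 mature miRNAs with a mean of at least 10 CPM, Pearson's correlation of log2(CPM + 1) with mmu-miR-219a-5p was highest for mmu-miR-219b-3p (0.995), mmu-miR-338-5p (0.987) and mmu-miR-151-5p (0.987). For mmu-miR-338-3p the nearest were mmu-miR-34b-5p (0.980), mmu-miR-330-5p (0.976) and mmu-miR-151-5p (0.976), and for mmu-miR-338-5p they were mmu-miR-219a-5p, mmu-miR-151-5p (0.986) and mmu-miR-3065-5p (0.982). For mmu-miR-219a-2-3p they were mmu-miR-129-5p (0.964), mmu-miR-219b-3p (0.962) and mmu-miR-219a-5p (0.958). These values describe the split between fractions, since the 18 libraries fall into separate clusters by fraction, and members share libraries and depth.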

How the data were processed

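Reads had been trimmed by the authors with cutadapt 4.6 and placed with Bowtie2 2.4.4 in local mode in successive rounds on mature miRNAs, tRNAs, piRNAs, and Ensembl noncoding and coding transcripts of mm39, and a read placed in one round left the next. The authors then ran HTSeq 2.0.2, ignoring strand and accepting any mapping quality, and the deposited counts are the raw whole numbers it gave for each feature, without normalization. Collapsing by molecular identifiers is not stated for these libraries, and equal RNA amounts entered each, so levels are relative. A further 36 columns of per-library values on other scales, and the authors' columns of fold changes and p-values from their own comparisons, were not used here.

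Each library's group and replicate number were taken from its title. edgeR 4.0.16 (R 4.3.3, limma 3.58.1) with TMM factors on library totals was fitted to the groups of each comparison, keeping features that reached 5 counts in 2 or more of the libraries fitted. Ensembl transcripts were summed per gene for gene lists and hairpins. Calls needed an adjusted p of at most 0.05 and a log2 fold change of at least 1 in size. CPM use library totals without factors. A count of 0 allows up to 3 counts, and 95% intervals of ratios are exact and cover counting error only. Arm ratios were compared by exact permutation over libraries, adjusted over 12 tests. The labels number the libraries of a group as biological replicates but tie none to a mouse, so p-values measure the spread between these libraries. Each brain yielded all fractions, so libraries of different fractions may share mice. The main fits and the arm permutations did not take this into account. Comparisons of fractions share the astrocyte, microglia or neuron libraries of a genotype. Alternatives were DESeq2 1.42.0, its size factors, library totals, scaling by mature miRNAs, no filter, 1 fit of all 18 libraries, a replicate block, and leaving out each library. The edgeR fit was tested on simulated data, and the permutation test was checked against that of scipy 1.17.1. The members and gene lists were chosen with earlier results of these data known. Named beside the members are the other arms and hairpins of their loci with Aatk, the 3 most correlated miRNAs, genes of the lists that passed in a comparison (the 8 most abundant where more did), and at most 6 other lineage miRNAs. Further genes in the text were chosen after their values were seen. Some genes of the lists count in the totals and are not reported here by name.

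Same-numbered libraries deviated together by more than 0.1 in every pair only between WT neurons and WT astrocytes (correlations of 0.128, 0.303 and 0.105).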

Additional observations from a re-analysis of the deposited data

Results flagged for a closer look

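On the chromosome 2 locus the estimates of the KIN effect had opposite signs in astrocytes and microglia. Mir219b, the hairpin on the strand opposite to Mir219a-2, had a log2 fold change of 1.20 in astrocytes, which was called. In microglia it was −1.02, which was not called (edgeR, adjusted p = 0.115). Neither pair of groups overlapped. Of all genes tested, 8.81% lay higher in KIN astrocytes without overlap and 19.8% lower in KIN microglia. The difference of −2.20 was called as an interaction (edgeR, adjusted p = 0.0260), where 0.425% of genes tested were called. It was lost in 1 fit of all 18 libraries (−2.25, adjusted p = 0.430) and without WT astrocytes replicates 1 or 3, KIN astrocytes replicates 1 or 3, WT microglia replicate 1 or KIN microglia replicates 2 or 3 (adjusted p up to 0.103). The cause was not tested.

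The same opposite directions, each without overlap, were seen for mmu-miR-219b-3p (1.10 in astrocytes, −0.52 in microglia) and for Mir219a-2 (1.00 and −0.28). Of all features tested, 10.8% lay higher in KIN astrocytes without overlap and 18.5% lower in KIN microglia. For mmu-miR-219b-3p and Mir219a-2 the interactions of −1.62 and −1.27 did not pass (edgeR, adjusted p = 0.0818 and 0.153). The microglia values were not called in either case. Reads of these features cannot be told apart by strand, so they are not independent of each other or of mmu-miR-219a-5p.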

How the results depend on the processing

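The lower level of all 4 miRNAs in microglia and neurons than in astrocytes kept its direction under every alternative that was run. The KIN effect in astrocytes was less stable. With 1 miRNA called there, DESeq2 and its size factors gave 2, no filter on low counts 3, and library totals, scaling by mature miRNAs alone and 1 fit of all 18 libraries 0, and leaving out 1 library gave 0 to 3. With scaling by mature miRNAs mmu-miR-219a-2-3p turned to −0.11. WT neurons against WT microglia, with 0 called, gave 1 with scaling by mature miRNAs and in the fit of all 18, 2 with no filter and 0 to 3 with 1 library left out. Of the interactions, all with 0 called, microglia minus astrocytes gave 0 to 1 with 1 library left out. Neurons minus astrocytes gave 3 with no filter. Neurons minus microglia gave 1 with DESeq2 and with no filter, and 0 to 1 with 1 library left out. The cause was not tested.

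In WT neurons against WT microglia mmu-miR-219a-5p turned to 0.15 with library totals and 1.57 with scaling by mature miRNAs, mmu-miR-338-3p to 0.14 with the latter, and mmu-miR-338-5p to −0.19 with no filter. With 1 library left out the ranges there were −4.05 to 0.49 for mmu-miR-219a-5p, −1.43 to 3.12 for mmu-miR-219a-2-3p and −6.08 to 0.80 for mmu-miR-338-5p. In KIN neurons against KIN microglia mmu-miR-219a-5p turned to 0.11 with scaling by mature miRNAs. In the interaction of microglia and astrocytes mmu-miR-338-3p turned to 0.043 with DESeq2, 0.042 with its size factors and 0.048 with scaling by mature miRNAs, and ranged from −0.64 to 0.11 with 1 library left out, as mmu-miR-338-5p did from −0.64 to 0.10. Between KIN and WT the range was −0.33 to 0.093 for mmu-miR-219a-5p in microglia and −2.74 to 1.85 for mmu-miR-219a-2-3p in neurons. In WT microglia against astrocytes Mir219a-1 was at −0.13 with library totals and −0.29 to 0.54 with 1 library left out.

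Of the lineage genes, KIN against WT astrocytes gave 2 calls with library totals, 3 with scaling by mature miRNAs, 0 in the fit of all 18 and 0 to 2 with 1 library left out, against 1. In microglia scaling by mature miRNAs and the fit of all 18 gave 1, and in neurons scaling by mature miRNAs gave 1 and no filter 2, against 0. WT microglia against astrocytes gave 3 to 7 with 1 library left out. WT neurons against astrocytes gave 7 in the fit of all 18 and 1 to 5 with 1 library left out. WT neurons against microglia gave 6 with scaling by mature miRNAs, 5 with no filter and 0 to 3 with 1 library left out. In KIN, no filter gave 11 for microglia against astrocytes and scaling by mature miRNAs 4 for neurons against astrocytes. For KIN neurons against microglia DESeq2 gave 1, scaling by mature miRNAs 4 and leaving out 1 library 1 to 2. The interaction of neurons and astrocytes gave 1 with no filter. With scaling by mature miRNAs, in KIN neurons against astrocytes, Mbp turned to 1.20, Cnp to 0.18, Mag to 0.43 and Olig1 to 0.29.

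Of the arm ratios, a pseudocount of 1 changed none of 12 tests, and a pseudocount of 0 could not be used where a neuron count was 0. With 0, miR-338 in KIN against WT microglia turned to −0.0314, and miR-219a in microglia against astrocytes was at −0.69 and lost its call. With 1 library left out miR-338 ranged from −0.12 to 0.14 in KIN against WT astrocytes, −0.22 to 0.41 in KIN against WT microglia, −1.06 to 0.099 in KIN against WT neurons, −0.027 to 0.23 in microglia against astrocytes, −2.08 to −1.61 in neurons against astrocytes and −2.22 to −1.72 in neurons against microglia. The ranges of miR-219a were −0.76 to −0.47, 1.75 to 2.51 and 2.37 to 3.13 in the last 3 comparisons. Fewer libraries leave fewer splits and so a larger smallest p.

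With the replicate number as a block, WT neurons against WT microglia gave 1 called miRNA (mmu-miR-338-3p, −2.40, edgeR adjusted p = 0.00208), mmu-miR-338-5p turned to −0.67 there, and no other count of called members moved. The block gave 691 called features in KIN against WT astrocytes (466 without it), 49 in microglia (215 without it) and 61 in the interaction of microglia and astrocytes (22 without it). Other settings moved these counts as well. In astrocytes scaling by mature miRNAs gave 1494 and the fit of all 18 gave 237. In microglia DESeq2 gave 378, scaling by mature miRNAs 329, no filter 426 and the fit of all 18 400. In neurons, with 0, scaling by mature miRNAs gave 20 and no filter 75. Neurons held 0 to 3 counts of several arms, so that changes there were not detectable at this depth.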

Other observations

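Other miRNAs known from the oligodendrocyte lineage differed among themselves in their levels across the fractions. Of 14 such miRNAs, 5 were called higher and 4 lower in WT microglia than in WT astrocytes, where 12.2% of features were called higher and 19.3% lower. mmu-miR-146a-5p, a regulator of inflammatory signalling, was higher by 8.66 ± 0.35 on the log2 scale, and mmu-miR-23a-3p by 2.43 ± 0.21. mmu-miR-9-5p, abundant in astroglia, fell by 5.26 ± 0.35, and mmu-miR-204-5p by 1.67 ± 0.27. In WT neurons against astrocytes 10 of 13 were called lower and mmu-miR-146a-5p higher (2.43 ± 0.46), where 18.5% of features were called lower and 10.2% higher and 212 of the 362 mature miRNAs tested were called lower. mmu-miR-9-5p, mmu-miR-138-5p, mmu-miR-151-3p and mmu-miR-204-5p were called lower than in astrocytes in both microglia and neurons, in WT and in KIN.

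Between KIN and WT, 1 of 13 tested was called in astrocytes, where 1.79% of features were called higher. It was mmu-miR-19b-3p of the miR-17-92 cluster, which rose by 1.90 ± 0.21 (edgeR, adjusted p = 0.00218). In microglia 3 of 14 were called, all higher, where 1.42% of features were, among them mmu-miR-146a-5p (1.16 ± 0.18, adjusted p = 0.0162). In neurons none of 8 was called by edgeR or DESeq2, and mmu-miR-9-5p alone had an unadjusted p under 0.05. The effect on mmu-miR-19b-3p in microglia minus that in astrocytes was −1.64 ± 0.32 (adjusted p = 0.0381). The medians of the tested miRNAs were 0.52 in astrocytes and 0.41 in microglia, against 0.58 and 0.46 for all mature miRNAs tested there.

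The 5 endothelial genes summed to 14.2 to 52.1 CPM in astrocytes, 27.3 to 125 CPM in microglia and 21.0 to 71.8 CPM in neurons. The 6 miRNAs of other cell types, which include mmu-miR-9-5p, summed to 6580 to 11425 CPM in astrocytes, 2976 to 5969 CPM in microglia and 603 to 3558 CPM in neurons.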
